A study of Homo with 4 samples.

Results

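Sphingolipid and ceramide metabolism was examined in H1299 cells as 35 genes, taken from the path that builds ceramide, converts it to sphingomyelin, glycosphingolipids or sphingosine phosphate, and breaks these lipids down. The genes were given as a list of symbols and were found in the count table by their GRCh38 position. Of the 35 genes, 34 were matched among 20263 genes in the table, and 33 had enough counts to be tested. H1299, a widely used line from a human non-small cell lung cancer, is labelled as epithelial cells of the lung. RNA was sequenced from cells infected by lentivirus with a control hairpin (shCtrl, genotype WT, n = 2) and from cells infected with a hairpin against the RNA-binding protein IGF2BP3 (shIGF2BP3, genotype IGF2BP3 knockdown, n = 2), all grown with 10% fetal bovine serum. The labels call the 2 libraries of a group biological replicates, and it is not stated which hairpin each shIGF2BP3 library carries, so the spread between them may include a difference between hairpins.

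Ceramide is the branch point of sphingolipid metabolism. It is made in the endoplasmic reticulum from serine and a fatty acyl-CoA by serine palmitoyltransferase, a reductase, the ceramide synthases and a desaturase, and the ORMDL proteins restrain the opening step. Ceramide then receives a headgroup to become sphingomyelin or glucosylceramide, is phosphorylated, or is cleaved by ceramidases to sphingosine, which the sphingosine kinases convert to the signalling lipid sphingosine phosphate. In cancer cells ceramide is best known for promoting growth arrest and death, and sphingosine phosphate for promoting growth and migration.

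IGF2BP3, the targeted gene, had 41.1 and 32.9 CPM (read counts divided by the TMM-scaled library size) in shCtrl and 26.4 and 24.8 CPM in shIGF2BP3. Both shIGF2BP3 libraries lay below both shCtrl libraries, at a fitted 69.1% of the control level, a fold of 1.45 (log2 fold change -0.53 ± 0.17 (SE), edgeR's quasi-likelihood test, adjusted p = 0.472). In bulk RNA a lower level in every cell and a smaller share of expressing cells cannot be told apart. Total counts ran from 29709686 to 34817513 per library, and the mitochondrial share was 9.11% and 13.4% in shCtrl, against 11.4% and 17.0% in shIGF2BP3. The 34 genes held between 0.142% and 0.148% of the counts in every library. Of the epithelial markers checked, KRT8 and KRT18 were abundant in all 4 libraries, while EPCAM, KRT19 and CDH1 were at or near 0 and the mesenchymal marker VIM was high.

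Measured per transcript length, the enzymes of the pathway differed widely in level in shCtrl. CERS2, the ceramide synthase for very long acyl chains, had the highest mean at 78.9 ± 48.1 FPKM (SD, n = 2), but with 44.9 and 113 FPKM in the separate libraries it did not stand clear of SPTLC1 at 47.7 ± 9.48 FPKM, a subunit of serine palmitoyltransferase. Next in order came GLA, the lysosomal alpha-galactosidase, at 36.8 ± 2.48 FPKM, SMPD4, a neutral sphingomyelinase, at 30.9 ± 1.66 FPKM, and CERS5, a ceramide synthase, at 27.2 ± 13.1 FPKM. CERS5 did not differ from its neighbours beyond this spread.

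A middle group lay between 10 and 22 FPKM in shCtrl. It held UGCG, glucosylceramide synthase, at 21.6 ± 4.35 FPKM, ORMDL1 at 20.4 ± 9.13, ORMDL2 at 18.0 ± 0.830, the nonlysosomal glucosylceramidase GBA2 at 15.4 ± 0.639, SMPD2 at 15.1 ± 1.25, DEGS1 at 14.3 ± 1.72, ORMDL3 at 11.4 ± 0.353, and SPTSSA and the acid ceramidase ASAH1 at 10.6 ± 1.91 and 10.6 ± 0.902 FPKM. Another 14 genes lay between 3.58 FPKM for B4GALT6 and 8.24 FPKM for KDSR. Neighbours within these groups mostly overlapped between libraries.

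The other 6 genes were low. SGMS2, a sphingomyelin synthase of the plasma membrane, stood at 1.91 ± 0.797 FPKM in shCtrl, the alkaline ceramidase ACER3 at 1.67 ± 0.619, the ceramide synthase CERS4 at 1.33 ± 0.432, ACER2 at 0.360 ± 0.226 and the phosphatase SGPP2 at 0.212 ± 0.135 FPKM. DEGS2, the paralog of DEGS1 that is also a hydroxylase, had 6, 6, 4 and 0 counts in the order shCtrl 1, shCtrl 2, shIGF2BP3 1 and shIGF2BP3 2 and was too low to test. The RefSeq locus of CERS1 overlapped 2 Ensembl genes almost equally, so it was not matched. The more abundant of these had 129 and 181 counts in shCtrl and 141 and 114 in shIGF2BP3, with a log2 fold change of -0.09.

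**Figure D1:**
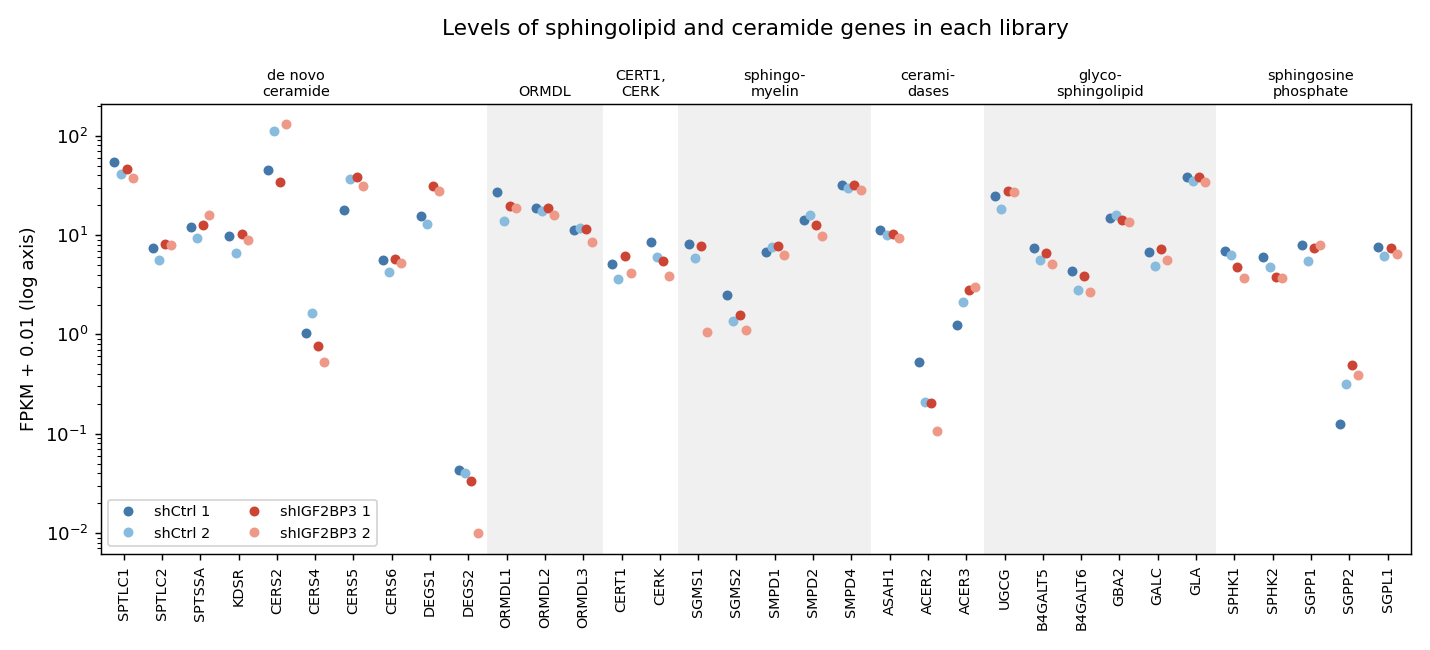
FPKM (plus 0.01, log axis) of the 34 matched genes in pathway order, with 1 point per library (blue shCtrl, red shIGF2BP3). CERS2 has the highest mean but lies below SPTLC1 in shCtrl 1 and in shIGF2BP3 1, and DEGS2 is the lowest gene. DEGS1 has both red points above both blue points, and SGMS1 has 1 red point far below the other libraries.

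To ask which enzymes differ after IGF2BP3 knockdown, shIGF2BP3 was compared with shCtrl. With the call rule of the study, a 1.5-fold difference or more together with p at or under 0.05 before adjustment, 1 gene was higher (DEGS1) and 2 were lower (SPHK1 and CERS4) among the 33 tested, against 5.32% of all 13379 genes tested called in either direction (2.54% higher and 2.78% lower). The 3 called genes are 9.09% of the 33. Regardless of fold, 8 of the 33 had p at or under 0.05, against 10.5% of all genes, 4 of them higher (5.43% of all genes) and 4 lower (5.12% of all genes). None of the 33 passed an adjusted p under 0.05 in edgeR's quasi-likelihood test, nor did any gene in the table, where the smallest adjusted p was 0.0626, while DESeq2 passed DEGS1.

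Seen as a whole the pathway had no common direction. The log2 fold change was above 0 for 17 genes and below 0 for 16, with a median of 0.01 beside 0.00 over all genes tested. The groups did not overlap in CPM for 19 genes, against 46.8% of all genes, with 11 having both shIGF2BP3 libraries above both shCtrl libraries and 8 with both below, where 23.3% of all genes lay above and 23.5% below.

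**Figure D2:**
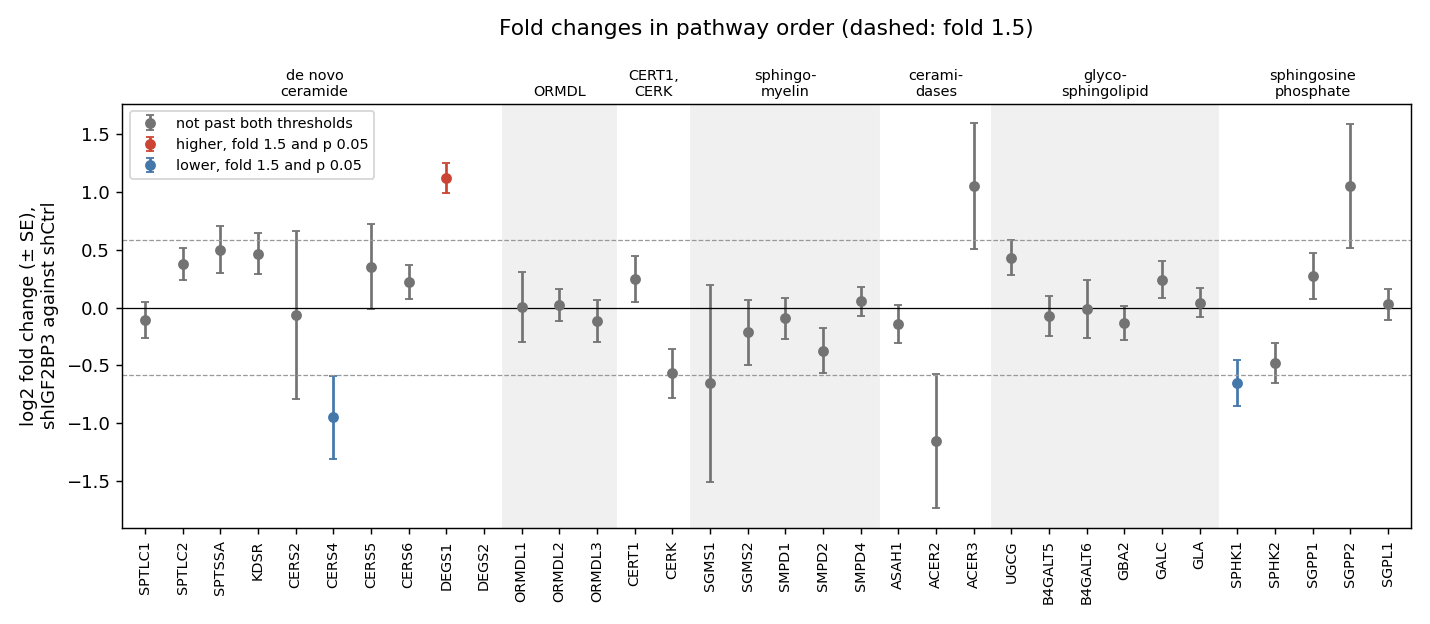
Log2 fold change of shIGF2BP3 against shCtrl (± SE, 2 libraries per group) for the 33 tested genes in pathway order, with dashed lines at fold 1.5. DEGS1 (red, 1.12) is higher and CERS4 and SPHK1 (blue, -0.95 and -0.65) are lower at both thresholds; DEGS2 was not tested.

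De novo ceramide synthesis held the clearest single difference. DEGS1, the dihydroceramide desaturase that introduces the double bond of ceramide, had 35.2 and 33.0 CPM in shCtrl and 74.4 and 73.7 CPM in shIGF2BP3. The 2 libraries of each group lay within 1.07 times of each other, and the groups were far apart. DEGS1 was 2.17-fold higher (log2 fold change 1.12 ± 0.13, adjusted p = 0.112), which ranked it 24 of 13379 genes by p. The call held without each library in turn, with a log2 fold change between 1.07 and 1.17. DEGS1 lies on chromosome 1 (GRCh38, 224175756 to 224193441, plus strand) and overlaps no other gene in the table.

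Almost all of the DEGS1 count was assigned to 1 transcript. ENST00000323699 had 1311 and 1112 counts in shCtrl and 2534 and 2011 in shIGF2BP3, at least 98.7% of the gene's count in every library. It was higher in the fit across all transcripts (log2 fold change 1.13 ± 0.16, adjusted p = 0.419). A minor transcript, ENST00000391877, had 0 and 0 counts in shCtrl and 26 and 19 in shIGF2BP3, about 1% of the gene, and was at least 8.70-fold higher against a floor of 3 counts per library.

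Of the 8 tested genes upstream of DEGS1, none was called higher (2.54% of all genes) and 1, CERS4, was called lower (2.78% of all genes). In 4 of the 8 (SPTLC2, SPTSSA, KDSR and CERS6) both shIGF2BP3 libraries lay above both shCtrl libraries in CPM, against 23.3% of all genes. SPTLC2, the catalytic subunit of serine palmitoyltransferase, had 64.0 and 55.7 CPM in shCtrl and 77.5 and 78.3 CPM in shIGF2BP3 (log2 fold change 0.38 ± 0.14, adjusted p = 0.472). KDSR, the reductase of the next step, had 47.5 and 35.6 CPM against 57.1 and 57.8 CPM (0.47 ± 0.18, adjusted p = 0.472). In both genes the groups did not overlap in CPM, but neither difference reached a fold of 1.5 or an adjusted p of 0.05. When counts were scaled to library totals, the log2 fold changes were 0.29 for SPTLC2 and 0.38 for KDSR. With that scaling in edgeR, and with limma, p before adjustment was above 0.05 for both genes. Without shCtrl 2 the log2 fold change of KDSR was 0.27 (adjusted p = 0.668), and without shCtrl 1 it was 0.69 (adjusted p = 0.534, past the call rule).

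SPTSSA, a small subunit that activates serine palmitoyltransferase, had 36.4 and 31.2 CPM in shCtrl and 40.2 and 55.5 CPM in shIGF2BP3. Its groups did not overlap, yet the distance between the 2 shIGF2BP3 libraries was larger than the gap between the groups (log2 fold change 0.50 ± 0.20, adjusted p = 0.477). It passed the call rule without shIGF2BP3 1 (0.72, adjusted p = 0.283). SPTLC1, its partner subunit, had 111 and 92.0 CPM against 99.1 and 88.6 CPM and overlapped between groups (-0.11 ± 0.16).

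The ceramide synthases, which attach acyl chains of different lengths, did not move together. CERS4 had 1.99 and 3.30 CPM in shCtrl and 1.56 and 1.16 CPM in shIGF2BP3 (log2 fold change -0.95 ± 0.36, adjusted p = 0.472), from 75, 112, 54 and 32 counts in library order. Its groups did not overlap, but the shCtrl libraries were further from each other than shCtrl 1 was from shIGF2BP3 1. By transcript, ENST00000251363 had 75 and 22 counts in shCtrl and 54 and 30 in shIGF2BP3 (log2 fold change 0.01), while ENST00000559450 had 80 counts in shCtrl 2 and 0 in every other library. The call on CERS4 was lost without shCtrl 2 (log2 fold change -0.54, adjusted p = 0.693) and without shIGF2BP3 2 (-0.76, adjusted p = 0.994). It was also lost with the replicate number as a block (-0.92), with DESeq2 (-0.95) and with limma on log2(FPKM + 1) (-0.50).

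CERS6, a synthase for long acyl chains, had 44.6 and 37.4 CPM in shCtrl and 48.0 and 47.7 CPM in shIGF2BP3 (log2 fold change 0.22 ± 0.15, adjusted p = 0.590). CERS5 had 41.3 and 92.2 CPM against 88.7 and 81.9 CPM (0.35 ± 0.37, adjusted p = 0.718), so that shCtrl 1 alone was low. Its log2 fold change was -0.11 without shCtrl 1 and 1.05 (adjusted p = 0.343, past the call rule) without shCtrl 2. CERS2 had 110 and 295 CPM in shCtrl and 78.6 and 309 CPM in shIGF2BP3 (-0.07 ± 0.72, adjusted p = 0.980). Both groups held 1 low and 1 high library for CERS2, so the comparison carries little information for this gene's total. Its transcript ENST00000560793 had 424 and 2964 counts in shCtrl and 999 and 5334 in shIGF2BP3. ENST00000271688 had 2394 and 3957 counts against 344 and 1238 and was not called (log2 fold change -1.69 ± 0.89, adjusted p = 0.879).

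Over the 9 tested genes of de novo synthesis, 5 had both shIGF2BP3 libraries above both shCtrl libraries in CPM (23.3% of all genes), 1 had both below (23.5% of all genes) and 3 overlapped, and the median log2 fold change was 0.35. These are SPTLC2, SPTSSA, KDSR, CERS6 and DEGS1 above and CERS4 below. In FPKM the groups overlapped for KDSR (9.85 and 6.63 in shCtrl, 10.3 and 8.93 in shIGF2BP3). They also overlapped in FPKM for CERS6 (5.66 and 4.28 against 5.77 and 5.26). The ORMDL genes, whose products bind and restrain serine palmitoyltransferase, overlapped between groups in all 3 cases, where 46.8% of all genes did not overlap. ORMDL1 had 56.9 and 30.4 CPM in shCtrl and 41.3 and 46.4 CPM in shIGF2BP3, ORMDL2 had 40.7 and 41.8 against 43.4 and 40.4, and ORMDL3 had 24.9 and 28.6 against 27.4 and 21.9. Their log2 fold changes were 0.01, 0.02 and -0.12. The sign for ORMDL1 and ORMDL2 turned negative when counts were scaled to library totals.

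**Figure D3:**
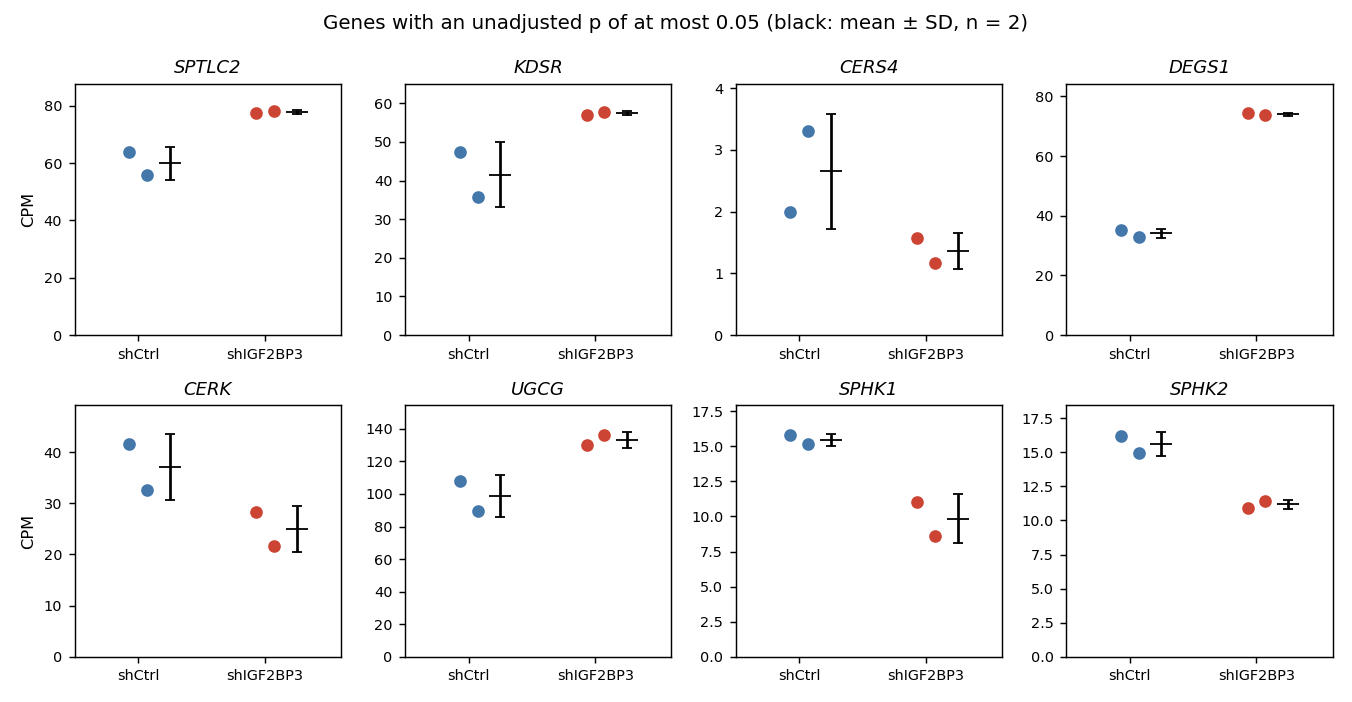
CPM per library for the 8 genes with p at or under 0.05 before adjustment, in shCtrl (blue) and shIGF2BP3 (red), with the mean ± SD of 2 libraries in black and axes from 0. SPTLC2, KDSR, DEGS1 and UGCG have both red points above both blue points, and CERS4, CERK, SPHK1 and SPHK2 have both below.

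Ceramide leaves the endoplasmic reticulum with the transfer protein CERT1, which feeds sphingomyelin synthesis in the Golgi. CERT1 had 19.7 and 15.5 CPM in shCtrl and 22.5 and 19.3 CPM in shIGF2BP3, with overlapping groups (log2 fold change 0.25 ± 0.20, adjusted p = 0.640). CERK, the kinase that makes ceramide phosphate, had 41.6 and 32.6 CPM in shCtrl and 28.2 and 21.7 CPM in shIGF2BP3. Both CERK values in shIGF2BP3 lay below both in shCtrl, at a fold of 1.48 just short of the threshold (-0.57 ± 0.21, adjusted p = 0.472). Without shCtrl 1 its log2 fold change was -0.38 (adjusted p = 0.585), and without shIGF2BP3 2 it was -0.40 (adjusted p = 0.994). CERK passed the call rule without shCtrl 2 (-0.74) and without shIGF2BP3 1 (-0.76).

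Sphingomyelin metabolism gave no call among its 5 tested genes, against 5.32% of all genes tested called in either direction. SGMS1, the Golgi sphingomyelin synthase, had 32.1 and 26.2 CPM in shCtrl and 32.9 CPM in shIGF2BP3 1, but 4.07 CPM in shIGF2BP3 2. The 2 shIGF2BP3 libraries were thus 8.08 times apart, and the log2 fold change of -0.66 ± 0.85 (adjusted p = 0.773) describes neither of them. Without shIGF2BP3 2 the value was 0.17 (adjusted p = 0.994), and without shIGF2BP3 1 it was -2.83 (adjusted p = 0.0200, past the call rule). The same library was low in the main transcript, ENST00000361781, with 1101 and 792 counts in shCtrl and 1122 and 65 in shIGF2BP3.

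SGMS2 overlapped between groups, with 13.7 and 8.94 CPM in shCtrl and 11.01 and 8.46 CPM in shIGF2BP3. Among the sphingomyelinases, which release ceramide from sphingomyelin, the lysosomal SMPD1 had 16.5 and 20.04 CPM against 17.1 and 17.2 CPM (log2 fold change -0.09 ± 0.18). SMPD2 had 22.6 and 29.4 CPM against 21.3 and 18.8 CPM (-0.37 ± 0.20, adjusted p = 0.517), the 1 gene of the sphingomyelin group with both shIGF2BP3 libraries below (23.5% of all genes). SMPD4 stayed within a narrow range, with 151 and 151 CPM in shCtrl and 161 and 153 CPM in shIGF2BP3 (0.05 ± 0.13, adjusted p = 0.878).

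None of the 3 ceramidases was called, against 5.32% of all genes tested called in either direction. ACER3 had 5.56 and 18.8 CPM in shCtrl and 23.4 and 27.1 CPM in shIGF2BP3 (log2 fold change 1.05 ± 0.55, adjusted p = 0.517). Its groups did not overlap, although shCtrl 1 was 3.39 times below shCtrl 2 in CPM. In FPKM, ACER3 had 1.23 and 2.11 in shCtrl and 2.81 and 2.96 in shIGF2BP3. Without shCtrl 1 the log2 fold change of ACER3 was 0.43 (adjusted p = 0.553) and without shCtrl 2 it was 2.18 (adjusted p = 0.244, past the call rule). ACER2, the Golgi enzyme, had 48 and 19 counts in shCtrl and 18 and 8 in shIGF2BP3, or 1.28 and 0.561 CPM against 0.521 and 0.290 CPM (-1.16 ± 0.58, adjusted p = 0.513). At these counts the shCtrl 2 value and the shIGF2BP3 1 value were close to equal, and without shCtrl 1 the log2 fold change of ACER2 was -0.44 (adjusted p = 0.818), and without shCtrl 2 it was -1.63 (adjusted p = 0.665, past the call rule). ASAH1 had 22.1 and 23.2 CPM in shCtrl and 22.0 and 19.0 CPM in shIGF2BP3 (-0.14 ± 0.16, adjusted p = 0.746).

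**Figure D4:**
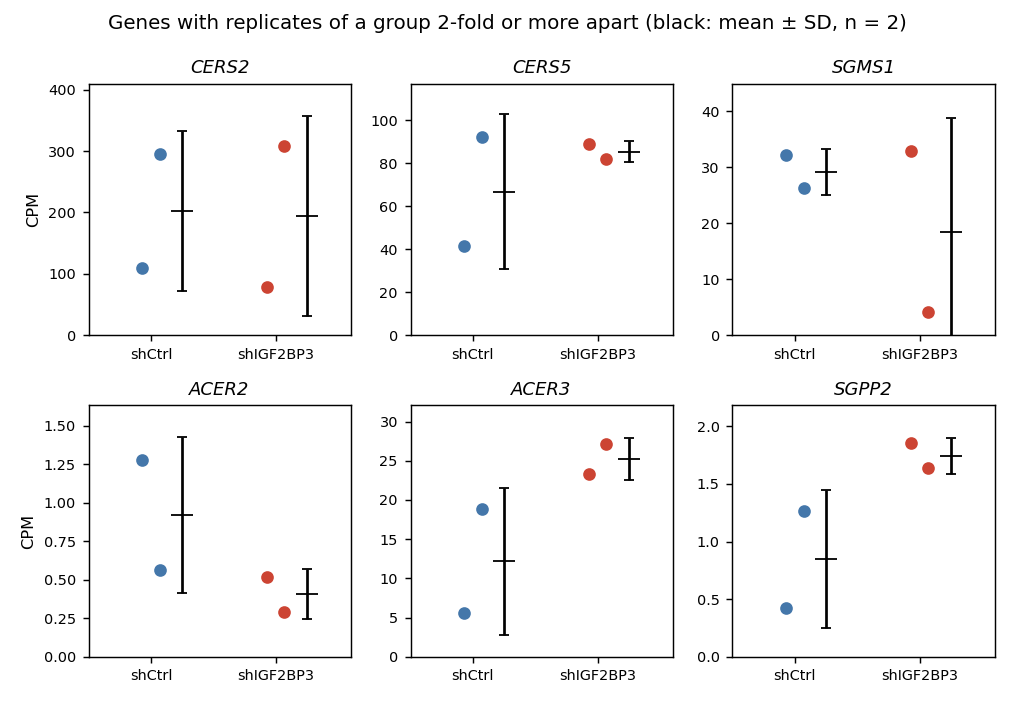
CPM per library for the 6 genes in which the 2 libraries of a group differed at least 2-fold, in shCtrl (blue) and shIGF2BP3 (red), with the mean ± SD of 2 libraries in black and axes from 0, which cuts the lower SD of SGMS1. CERS2 splits within both groups, CERS5 and ACER3 have a low shCtrl 1, and SGMS1 has a low shIGF2BP3 2.

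Some replicates were 2-fold or more apart in CPM. CERS2, CERS5, SGMS1, ACER2, ACER3 and SGPP2 had such a gap in at least 1 group, 6 of 33 genes (18.2%), beside 11.2% of all genes tested, and of these CERS2, CERS5, SGMS1 and ACER3 had over 100 counts in every library. The low library was shCtrl 1 for CERS5 and ACER3, shIGF2BP3 2 for SGMS1, and both first-numbered libraries for CERS2. Mitochondrial counts took the largest share in shIGF2BP3 2 and the smallest in shCtrl 1, and the part of this in the 4 genes was not tested.

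Glycosphingolipid synthesis starts with UGCG, which puts glucose on ceramide. UGCG had 108 and 89.6 CPM in shCtrl and 130 and 136 CPM in shIGF2BP3, with no overlap (log2 fold change 0.43 ± 0.15, adjusted p = 0.472). The fold of 1.35 was under the threshold. When counts were scaled to library totals, the log2 fold change of UGCG was 0.34. With that scaling in edgeR, and with limma, its p before adjustment was above 0.05. The log2 fold change was 0.30 without shCtrl 2 and 0.57 without shCtrl 1. The galactosyltransferases that extend the chain to lactosylceramide overlapped between groups, with B4GALT5 at 37.9 and 32.0 CPM in shCtrl and 36.2 and 30.4 CPM in shIGF2BP3, and B4GALT6 at 16.2 and 12.04 CPM against 16.2 and 11.8 CPM.

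The glycosidases of this branch were not called in either direction. GBA2 had 44.4 and 52.0 CPM in shCtrl and 43.6 and 44.3 CPM in shIGF2BP3 (log2 fold change -0.13 ± 0.15). GALC, the lysosomal galactosylceramidase, had 24.5 and 21.5 CPM against 28.2 and 26.3 CPM (0.24 ± 0.16, adjusted p = 0.582). GLA had 55.5 and 56.0 CPM against 58.8 and 56.1 CPM (0.04 ± 0.13). GLA lies wholly within RPL36A-HNRNPH2 on the opposite strand, which was called higher (log2 fold change 1.16), and it is not stated whether the counting used strand. CERS2, CERT1, DEGS2, GBA2, ORMDL1, ORMDL2, SMPD2 and SMPD4 also share bases with genes on the opposite strand, ORMDL2 over its whole length. The part of these neighbours in the counts was not tested.

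The sphingosine kinases, which make sphingosine phosphate, both had lower CPM in shIGF2BP3, and only SPHK1 was called. SPHK1 had 15.8 and 15.2 CPM in shCtrl and 11.1 and 8.60 CPM in shIGF2BP3, a fold of 1.57 (log2 fold change -0.65 ± 0.20, adjusted p = 0.472). SPHK2 had 16.2 and 14.96 CPM against 10.95 and 11.4 CPM, a fold of 1.40 that was under the threshold (-0.48 ± 0.17, adjusted p = 0.472). For both kinases the groups did not overlap and the gap between them exceeded the distance between shCtrl libraries. The SPHK1 call was lost without shCtrl 1 (log2 fold change -0.62, adjusted p = 0.542), without shCtrl 2 (-0.68, adjusted p = 0.665) and without shIGF2BP3 2 (-0.48, adjusted p = 0.994). It was also lost with limma on log2(FPKM + 1) (-0.55) and with the highest transcript only (-1.55).

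SPHK1 is on chromosome 17 (GRCh38, 76376584 to 76387860, plus strand) and shares 7938 bases with PRPSAP1 on the opposite strand, whose log2 fold change was -0.08. SPHK2 is on chromosome 19 (48619291 to 48630717, plus strand) and shares 246 bases with RPL18, which had 29326 to 34839 counts per library against 314 to 610 for SPHK2 (log2 fold change of RPL18 0.31). It also shares 688 bases with DBP on the opposite strand, which had 291 to 495 counts per library and a log2 fold change of -0.30 that was not called. The part of these neighbours in the kinase counts was not tested.

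The enzymes that remove sphingosine phosphate were not called in either direction. SGPL1, the lyase that ends the pathway, had 44.6 and 42.5 CPM in shCtrl and 45.1 and 43.7 CPM in shIGF2BP3 (log2 fold change 0.03 ± 0.13, adjusted p = 0.949). The phosphatase SGPP1 had 28.5 and 21.8 CPM against 28.1 and 32.8 CPM (0.27 ± 0.20, adjusted p = 0.608). SGPP2 rested on 16 and 43 counts in shCtrl and 64 and 45 in shIGF2BP3, or 0.425 and 1.27 CPM against 1.85 and 1.63 CPM. With shCtrl 1 at 16 counts, its log2 fold change of 1.05 ± 0.54 was not called (adjusted p = 0.516), and it was 0.46 (adjusted p = 0.647) without shCtrl 1 and 2.03 (adjusted p = 0.550, past the call rule) without shCtrl 2.

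The counts were also compared transcript by transcript. Of 99 transcripts tested from the 33 genes, 5 were higher and 7 lower at fold 1.5 and p 0.05, against 2.50% and 3.79% (6.30% in all) of 37927 transcripts tested, and none passed an adjusted p under 0.05 (smallest 0.419). Before adjustment 12 had p at or under 0.05, against 6.58% of all transcripts tested. The share of a gene's count that a transcript took (its usage) was tested against the rest of the gene for 88 transcripts, of which 1 passed an adjusted p under 0.05, against 0.830% of 33125 transcripts, and 8 had p at or under 0.05 before adjustment, against 4.51%. The 1 that passed was ENST00000378094 of GBA2 (chromosome 9, 35736867 to 35749218), with 0 and 0 counts in shCtrl and 98 and 68 in shIGF2BP3, or 6.51% and 5.57% of the gene (usage adjusted p = 0.00673). It was at least 32.0-fold higher against the floor of 3 counts per library. The usage call on this transcript was lost with at least 10 counts required in every library, a filter that leaves it out. It was also lost with the replicate number as a block, without shCtrl 1 and without shCtrl 2. On simulated data the usage test made more calls in unchanged genes than among changed transcripts, which were far fewer. With 64-fold changes it called 12 of 155 changed transcripts and 22 in unchanged genes, among 29361 tested. With 2-fold and 4-fold changes it called 0 of 83 and 0 of 88, and 11 in unchanged genes, among 29790 tested. The leading GBA2 transcript, ENST00000378103, had 1201 and 1258 counts in shCtrl and 949 and 745 in shIGF2BP3 and was not called.

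SMPD1 had a steady total, while the counts assigned to its transcripts differed between libraries. ENST00000533123 had 212 and 172 counts in shCtrl and 0 and 0 in shIGF2BP3, at least 54.0-fold lower. ENST00000526280 had 0 and 0 counts in shCtrl and 79 and 75 in shIGF2BP3, at least 30.2-fold higher. Neither difference in usage passed adjustment (adjusted p = 0.277 and 0.308). The remaining SMPD1 transcripts varied between replicates too, since ENST00000527275 had 351 and 0 counts and ENST00000534405 had 11 and 195 counts in the 2 shIGF2BP3 libraries.

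Other called transcripts were minor forms. ENST00000635998 of ASAH1 had 67 and 61 counts in shCtrl and 0 and 0 in shIGF2BP3, at least 18.0-fold lower, and ENST00000381733 of ASAH1 had 26 and 28 counts against 6 and 5. ENST00000237019 of B4GALT6 had 23 and 24 counts against 0 and 0 (usage adjusted p = 0.0524), and ENST00000405807 of CERT1 had 24 and 12 against 0 and 0 (usage adjusted p = 0.0634). All 4 were lower in shIGF2BP3 while the main transcript of B4GALT6 and that of CERT1 overlapped between groups. In GALC the called transcript, ENST00000622264, was higher, with 10 and 6 counts in shCtrl and 52 and 17 in shIGF2BP3.

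CERS5 shows how far the assignment of counts to transcripts varied between libraries. ENST00000547787 had 971 and 2846 counts in shCtrl and 0 and 2158 in shIGF2BP3, while ENST00000317551 had 303 and 29 against 2893 and 59. In shIGF2BP3 1 the gene's count thus sat on the second transcript and in the other 3 libraries mostly on the first, and both transcripts span nearly the same stretch of chromosome 12 (50129799 to 50167303 and 50129798 to 50167422). ENST00000422340, with 175 and 111 counts in shCtrl and 29 and 20 in shIGF2BP3, and ENST00000380189, with 58 and 84 against 18 and 10, were called lower.

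SPHK1 and SPHK2 divided unevenly as well. ENST00000323374, the leading SPHK1 transcript, had 532 and 295 counts in shCtrl and 253 and 11 in shIGF2BP3, and in shIGF2BP3 2 most of the count lay on ENST00000592299, with 25 and 101 counts in shCtrl and 21 and 201 in shIGF2BP3. For SPHK2, ENST00000599748 had 329 and 247 counts against 0 and 147, and ENST00000598088 had 113 and 98 against 243 and 30. No transcript of either kinase was called.

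**Figure D5:**
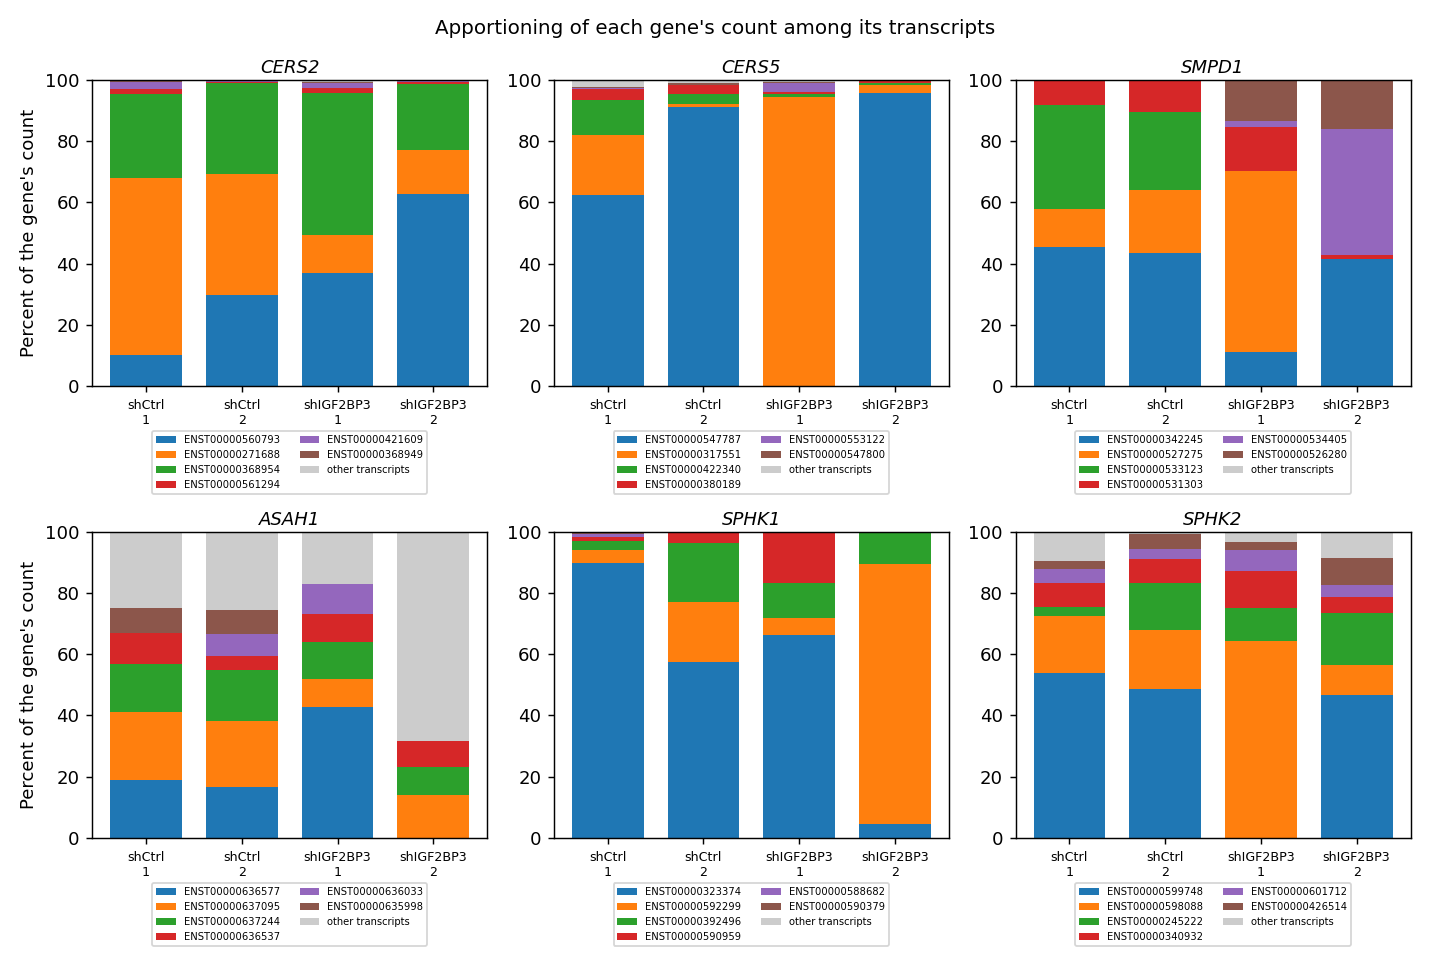
Percent of each gene's count assigned to its 6 leading transcripts (colours, legend under each panel) and to all others (grey) in the 4 libraries, for CERS2, CERS5, SMPD1, ASAH1, SPHK1 and SPHK2. The second transcript of CERS5 takes 94.5% in shIGF2BP3 1 and under 20% elsewhere, and the green SMPD1 transcript is absent from both shIGF2BP3 libraries.

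Among 78 transcripts of these genes with at least 50 counts in some library, 15 (19.2%) were at 0 in 1 library of a group with at least 50 counts in the other, beside 12.97% of 29891 transcripts over all genes. Only 4 (5.13%, beside 0.94% over all genes) were at 0 in both libraries of 1 group with at least 50 counts in both of the other. These 4 are the GBA2 transcript ENST00000378094, the 2 called SMPD1 transcripts and the ASAH1 transcript ENST00000635998.

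Pathway genes outside the 35 were counted from a list of 65, of which 63 were matched and 54 tested. Of these, 2 were higher and 2 lower at fold 1.5 and p 0.05, which is 7.41% of the 54 beside 5.32% of all genes (2.54% higher and 2.78% lower), and the median log2 fold change was 0.02. SAMD8, a sphingomyelin synthase relative of the endoplasmic reticulum that makes ceramide phosphoethanolamine, had 6.67 and 4.10 CPM in shCtrl and 25.5 and 36.1 CPM in shIGF2BP3, which is 5.71-fold higher (adjusted p = 0.127). GLTP, the glycolipid transfer protein, had 37.6 and 37.7 CPM against 49.8 and 65.8 CPM, 1.53-fold higher (adjusted p = 0.472). In both genes the 2 shIGF2BP3 libraries lay above the 2 shCtrl libraries.

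The 2 lower genes were GLB1, the lysosomal beta-galactosidase, and PSPH, the last enzyme of serine synthesis. GLB1 had 52.5 and 49.0 CPM in shCtrl and 31.4 and 36.0 CPM in shIGF2BP3 (log2 fold change -0.59 ± 0.15, adjusted p = 0.472), with TMPPE overlapping it on the same strand at 11 to 26 counts. PSPH had 42.3 and 23.96 CPM against 18.7 and 20.9 CPM (-0.74 ± 0.29, adjusted p = 0.472), and shCtrl 2 was closer to the shIGF2BP3 libraries than to shCtrl 1. None of the 7 tested S1P receptors and transporters was called, nor any of the 7 tested enzymes of ganglioside and globoside synthesis. The lysosomal and other breakdown enzymes had 1 call, GLB1, among 14 tested. These counts stand beside 5.32% of all genes tested called in either direction.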

How the data were processed

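RNA was measured in 2 shCtrl and 2 shIGF2BP3 libraries. The authors deposited estimated counts per Ensembl transcript, as whole numbers without normalization, and FPKM per transcript and library. The submitters' processing notes name CASAVA, Trimmomatic, HISAT2, bedtools, FastQC and GRCh38; the counter, the annotation and strand setting are not given in the sources used here. Counts of 95139 transcripts were summed to 20263 genes. Symbols came from RefSeq (GRCh38.p14) by reciprocal best overlap (shared part at least 0.5 of the joint length, lead 0.2).

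The gene test was that of edgeR 4.0.16, run in R 4.3.3 (TMM, filterByExpr with a minimum count of 10 and total of 15, prior count 0.125, quasi-likelihood test, two-sided, Benjamini-Hochberg adjustment over all genes tested). Transcripts were fitted likewise, and usage with diffSpliceDGE. On simulated data the usage test called more transcripts of unchanged genes than changed transcripts, which were far fewer, so its adjusted p ranks transcripts only. Groups came from the sample titles. The genes and lists were chosen with earlier results of these data known. All 35 genes are named, with full statistics for those past both thresholds or among the 10 largest fold changes. Replicate libraries differed far beyond sampling noise (chi-square per degree of freedom 79.1 and 78.6), the common biological coefficient of variation was 22.8%, and a count of 3 stood for 0.0798 to 0.109 CPM. Floors cover counting error only. Alternatives were DESeq2 1.42.0, other scalings and filters, limma 3.58.1 on log2(FPKM + 1) and log2(FPKM + 0.1), a replicate block, fold 2, the highest transcript only and each library left out.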

Additional observations from a re-analysis of the deposited data

How the results depend on the processing

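DEGS1 was called under all 14 alternatives tried, with a log2 fold change of 1.00 to 1.17, and its adjusted p fell under 0.05 with DESeq2 alone. Genes called higher went from 340 to 195 when scaled to library totals, to 175 by limma on log2(FPKM + 0.1), to 127 on log2(FPKM + 1), to 106 on that scale without the filter and to 108 at fold 2, and to between 213 and 680 with 1 library left out. Genes called lower went from 372 to 151 at fold 2 and to between 322 and 872 with 1 library left out. Higher genes were 47.8% of the calls, 28.7% when scaled to library totals, and 27.3% under limma at a pseudocount of 1. Library totals moved the median of all genes to -0.08. The higher count among the 33 genes was 2, with ACER3 added, under DESeq2, limma on log2(FPKM + 0.1) and the replicate block, and 1 to 4 with 1 library left out. The lower count was 1 with DESeq2 and the replicate block, 0 at fold 2 and with limma on log2(FPKM + 1) with or without the filter, and 0 to 4 with 1 library left out. At an adjusted p under 0.05, DESeq2 called 1 higher gene, and leaving out a library gave 0 to 1 lower genes (SGMS1 without shIGF2BP3 1). A lone library was assumed to vary like the other group. Transcripts called higher were 1 with at least 10 counts in every sample and 2 with limma, and 4 to 7 with 1 library left out. Those called lower were 3, 2 and, with the replicate block, 4, and 1 to 11 with 1 library left out. The usage call on GBA2 was lost (0 transcripts) with at least 10 counts in every sample and with the replicate block, and leaving out a library gave 0 to 2. IGF2BP3 passed both thresholds without shCtrl 2 (-0.69), with library totals (-0.62) and by limma (-0.68 on log2(FPKM + 0.1), -0.60 on log2(FPKM + 1) with or without the filter), and lay between -0.69 and -0.36 with 1 library left out.

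Signs turned under some settings, for CERS4, SGMS1 and CERS5 from main values of -0.95, -0.66 and 0.35 and for the others from values nearer 0. With the highest transcript only, log2 fold changes were 0.25 for ASAH1, 0.0771 for B4GALT6, 1.21 for CERS2, 0.0137 for CERS4 and -0.46 for CERS5. With library totals they were -0.0337 for GLA, -0.10 for ORMDL1, -0.0541 for ORMDL2, -0.0522 for SGPL1 and -0.0228 for SMPD4. With limma on log2(FPKM + 0.1) they were -0.0204 for GLA, -0.0325 for SMPD4, -0.0737 for ORMDL2 and -0.00537 for ORMDL1, and on log2(FPKM + 1), with or without the filter, -0.0199, -0.0316, -0.0699 and -0.00837. With 1 library left out the ranges were -0.19 to 0.0610 for B4GALT5, -0.25 to 0.22 for B4GALT6, -1.37 to 0.81 for CERS2, -0.11 to 1.05 for CERS5, -0.38 to 0.53 for ORMDL1, -0.0213 to 0.0709 for ORMDL2, -0.28 to 0.0343 for ORMDL3, -2.83 to 0.17 for SGMS1, -0.49 to 0.13 for SGMS2, -0.00756 to 0.0677 for SGPL1, -0.22 to 0.0563 for SMPD1 and -0.24 to 0.0320 for SPTLC1. The sign turned without shCtrl 1 for B4GALT5, B4GALT6, CERS5, SGMS2 and SPTLC1, without shCtrl 2 for CERS2, ORMDL1, SGPL1 and SMPD1, without shIGF2BP3 1 for CERS2 and ORMDL2, and without shIGF2BP3 2 for B4GALT5, B4GALT6, ORMDL1, ORMDL3 and SGMS1. The cause of these shifts was not tested.

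The libraries share only a replicate number, and in the count table the shIGF2BP3 columns carry the numbers 2 and 3. Deviations of same-numbered libraries correlated at 0.022. With the replicate block the call on CERS4 was lost (log2 fold change -0.92, adjusted p = 0.455) and ACER3 passed the call rule (1.29, adjusted p = 0.447). With 2 libraries per group, precision was set by the spread between libraries more than by depth.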
